A study of Mus musculus with 12 samples.

Results

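In mouse B16F10 melanoma cells, 42 of the 24421 genes in the count files were near silent in the vehicle control and reached a low but countable level with 5-aza-2′-deoxycytidine (DAC) single treatment. They were chosen by read counts alone: a gene was included when its raw counts summed to at most 12 over the 3 control libraries and to at least 24 over the 3 libraries of DAC single treatment. The control and DAC counts therefore describe the selection and are given without a test. The 3 libraries of sulforaphane (SFN) single treatment and the 3 of the combination treatment (DAC+SFN) took no part in the choice, and the question asked of them was how these 42 genes behaved when SFN was present, without and with DAC. All 12 libraries came from the same melanoma line, with 3 independent biological repeats in each of 4 groups and harvest at 72 h. Control cells (CON) received dimethyl sulfoxide, at 0.025% in the labels. DAC was given at 25 nM for 72 h, and SFN for the last 48 h. The labels give the SFN dose as 5 nM for single treatment and as 5 µM for the combination treatment, whereas the methods of the study use the micromolar dose for both, so by the labels the SFN dose is not matched between these groups.

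DAC is a cytidine analog that is built into replicating DNA and traps the maintenance methyltransferase DNMT1, so that methylation at CpG sites is lost as the cells divide. Germline genes, cancer-testis antigens on the X chromosome and interferon-stimulated genes are known for their response to such drugs in tumor cells, since many of them have methylated promoters or respond to double-stranded RNA from derepressed repeats. SFN is an isothiocyanate of cruciferous vegetables that activates the transcription factor NRF2 and has been described as a histone deacetylase inhibitor. DNA methylation was not measured in these libraries.

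The 5′ sequences of Wnt11 and Hdc are shown because they differ most in CpG content among those of the 12 genes with the largest DAC counts that have a sequence here, and the microRNA of Mir8091 because its gene had the largest estimate in the comparison of the combination treatment with SFN. Wnt11 encodes a secreted ligand of non-canonical Wnt signalling, and Hdc encodes histidine decarboxylase, the enzyme that makes histamine. For both genes the 250 bases upstream of a RefSeq transcript start in GRCm38.p6 are given, 5′ to 3′ on the strand of the gene, with each CpG in capitals. The Wnt11 stretch is chr7:98834862-98835111 on the plus strand and the Hdc stretch is chr2:126618679-126618928 on the minus strand. The mature microRNA lies at chr19:41588691-41588712 on the plus strand, and its capitals mark the seed (bases 2 to 8).
Wnt11: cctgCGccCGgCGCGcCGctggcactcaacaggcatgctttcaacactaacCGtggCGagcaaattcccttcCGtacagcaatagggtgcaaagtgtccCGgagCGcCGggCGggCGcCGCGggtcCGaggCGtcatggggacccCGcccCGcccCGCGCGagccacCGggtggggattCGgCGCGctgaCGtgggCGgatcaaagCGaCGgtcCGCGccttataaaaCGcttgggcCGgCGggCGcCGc
Hdc: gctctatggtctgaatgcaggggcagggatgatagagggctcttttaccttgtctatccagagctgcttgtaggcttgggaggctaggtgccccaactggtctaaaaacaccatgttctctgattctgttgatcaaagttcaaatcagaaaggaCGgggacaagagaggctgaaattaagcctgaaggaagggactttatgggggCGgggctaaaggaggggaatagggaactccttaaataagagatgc
mmu-miR-8091: aGGAGUGAgugguaagcuggug

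The Wnt11 stretch held 37 CpG sites and the Hdc stretch 2. Counted over 300 bases, from 250 upstream to 50 downstream of the start, they held 45 and 3, against a median of 7 over all 32851 promoter windows of the mouse RefSeq table. Only 1.93% of these windows had as many CpG sites as that of Wnt11, and 31.4% had as few as that of Hdc. Wnt11 has a further start in the same table, at which the window held 23 CpG sites. Windows were found for 29 of the 42 genes (69%), which is too few to describe CpG content over the whole group. Motifs were searched on both strands of these stretches, and a match is a description only. The E-box CACGTG occurred in neither stretch and in 6.02% of all windows. For TCCCGC, read on either strand, the share of windows was 16.9% and for TGACGTCA 1.55%, again with no match in the stretches shown. CCGGAA, read on either strand, occurred in 12% of windows and in neither stretch.

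Total counts per library ranged from 15880957 to 27291436, so 1 CPM (a count per 1e+06 counts of the library) stood for 15.9 to 27.3 counts, and a count of 0 allowed up to 3 counts, which covers counting error only. Of the melanocyte markers, 10 of 10 were counted, with a summed level of 22133 to 31246 CPM. Of the markers of other cell types, Cd14 and Adgre1 of macrophages and the endothelial Cdh5 were at 0 in all 12 libraries, and the pan-leukocyte gene Ptprc had at most 2 counts in any library. The 10 immune markers summed to 1.35 to 5.5 CPM, most of it from Lyz2 (25 to 129 counts per library), with 5 to 19 counts from Cd79a. The 6 endothelial markers summed to 2.09 to 7.03 CPM, most of it from Vwf (30 to 164 counts per library), with 1 to 11 counts from Pecam1. Among the 8 fibroblast markers Dcn, Lum and Thy1 had at most 3 counts in any library. The list as a whole summed to 276 to 404 CPM in the libraries of replicate 3. It summed to 75.3 to 108 CPM in those of replicate 1 and 36.2 to 53.4 CPM in those of replicate 2. With the libraries of a group added up, most of it came from Col1a1, but not in every library. Col1a1 had 284 to 9514 counts per library and Postn 242 to 732. Libraries with the same replicate number deviated together in every group, and the model took that number as a block. The library numbers in the labels follow the replicate number, so a library batch and the biological repeat cannot be told apart. In bulk RNA, fewer cells that express a gene and less RNA per cell cannot be told apart either.

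The counts behind the selection were small. Over the 3 libraries of a group, the sum per gene had a median of 10 in control (3 to 12) and of 25.5 with DAC (24 to 45). With all 42 genes added up, the libraries of replicates 1, 2 and 3 held 5.76, 4.86 and 8.03 CPM in control and 15.1, 15.9 and 20.8 CPM with DAC. These groups had to differ, since their counts chose the genes. The mirrored choice, at most 12 counts with DAC and at least 24 in control, found 3 genes (Hist1h4d, Rimkla and Asb4). For 17 of the 42 genes a single library supplied over 50% of the DAC counts. In terms of CPM, the highest DAC value belonged to replicate 1 in 10 genes, to replicate 2 in 14 and to replicate 3 in 18. For 18 genes every DAC library lay above every control library in CPM, and for the other 24 the libraries of these groups overlapped. No gene exceeded 44 counts in any library.

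**Figure D1:**
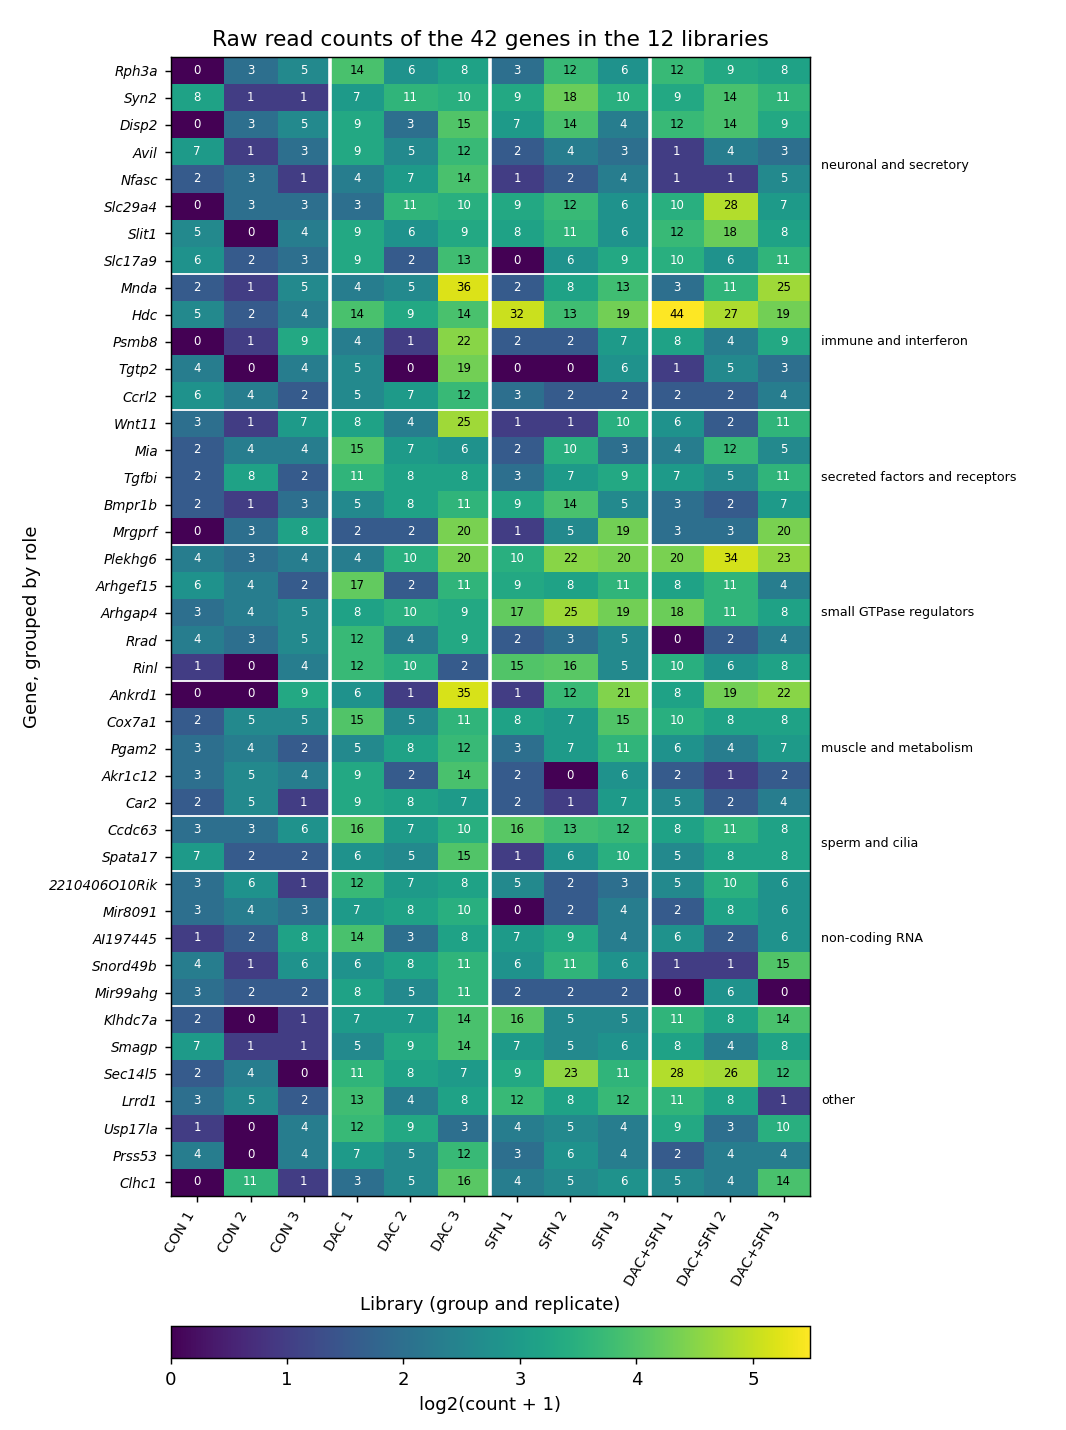
Raw read counts of the 42 genes (vertical axis, grouped by role) in the 12 libraries (horizontal axis, group and replicate), with the count printed in each cell and color showing log2(count + 1). No cell exceeds 44 counts, and for genes such as Mnda, Ankrd1 and Mrgprf the DAC column of replicate 3 holds most of the DAC counts.

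The limits of the choice cut through a continuum. Ccdc63, Cox7a1 and Arhgef15 lay just inside the control limit with 12 control counts each, and Ace, Mndal and Begain just outside it with 13 control counts and 49, 43 and 35 DAC counts. At the DAC limit, Rinl, Usp17la and Bmpr1b were included with 24 counts, whereas Atp2a3, Hopx and A330074K22Rik, with 23, were not. Hopx had 20 of its 23 DAC counts in replicate 3.

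In the libraries that the choice did not use, the genes spread from near silence to counts above their level with DAC. The summed count per gene had a median of 20.5 with SFN (6 to 64) and of 21.5 with DAC+SFN (5 to 90). With SFN, 12 genes remained at or under 12 counts, 13 lay between 13 and 23 and 17 reached 24 or more. With the combination treatment these numbers were 10, 15 and 17. In both groups 14 genes reached 24 counts, and 8 stayed at or under 12: Avil, Nfasc, Akr1c12, Rrad, Mir99ahg, Tgtp2, Car2 and Ccrl2. For 12 genes the count with SFN alone, without any DAC, was at least as large as the count with DAC alone: Hdc, Plekhg6, Ccdc63, Syn2, Arhgap4, Sec14l5, Lrrd1, Rinl, Bmpr1b, Slc29a4, Slit1 and Mrgprf. The SFN libraries were deeper than the DAC libraries, and by mean CPM this held for 10 genes, without Slc29a4 and Slit1. No gene repeated the pattern of the choice when SFN was present, with at most 12 counts with SFN and at least 24 with DAC+SFN. That choice found 19 genes in all, and its mirror, at most 12 with DAC+SFN and at least 24 with SFN, found 14, of which Bmpr1b was 1 of the 42.

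**Figure D2:**
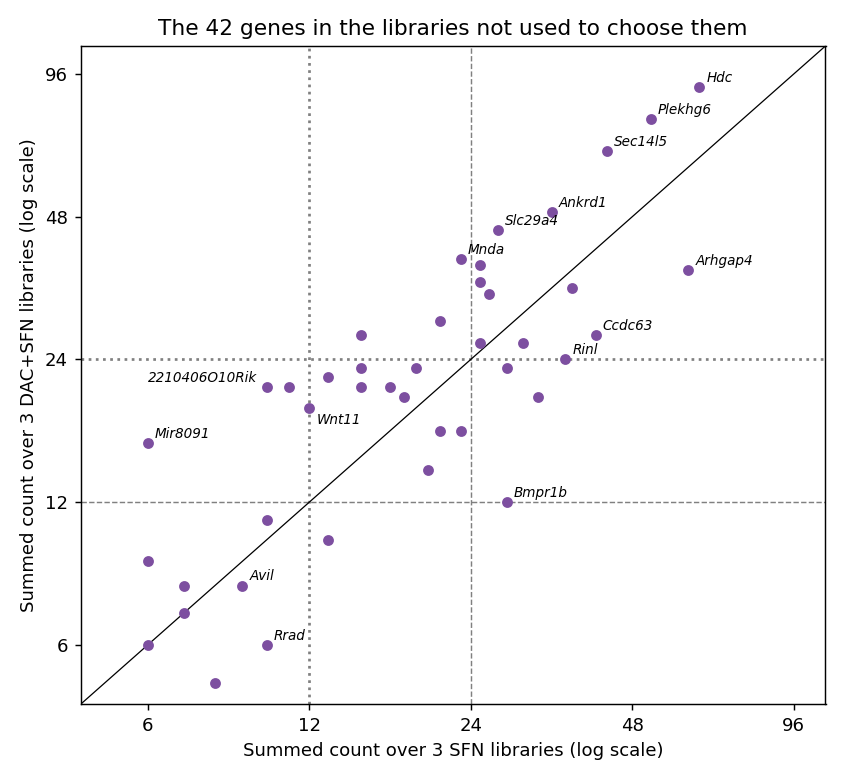
Summed raw count of each of the 42 genes over the 3 SFN libraries (horizontal axis, log scale) and over the 3 DAC+SFN libraries (vertical axis, log scale), with the line of equality in black and lines at 12 and 24 counts. No point lies in the upper left region of at most 12 counts with SFN and at least 24 with DAC+SFN, and Hdc, Plekhg6, Sec14l5 and Arhgap4 have the most counts.

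Added up over the 42 genes, the level in replicates 1, 2 and 3 was 11.9, 12.6 and 14.4 CPM with SFN and 15.1, 17.3 and 18.2 CPM with DAC+SFN, or 12.98 ± 1.30 and 16.88 ± 1.58 CPM (SD, n = 3). The 3 combination libraries lay above the 3 SFN libraries. Replicate 3 was the highest in all 4 groups. The 4 genes with the most counts in these libraries (Hdc, Plekhg6, Sec14l5 and Arhgap4) carried much of the sum, and without them the levels were 8.74, 9.56 and 11.6 CPM with SFN and 10.2, 12.7 and 15.2 CPM with DAC+SFN. The groups then overlapped, while the combination library was still above the SFN library in each of the 3 pairs. These 4 genes were picked by their counts in the same libraries, so neither sum was tested.

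**Figure D3:**
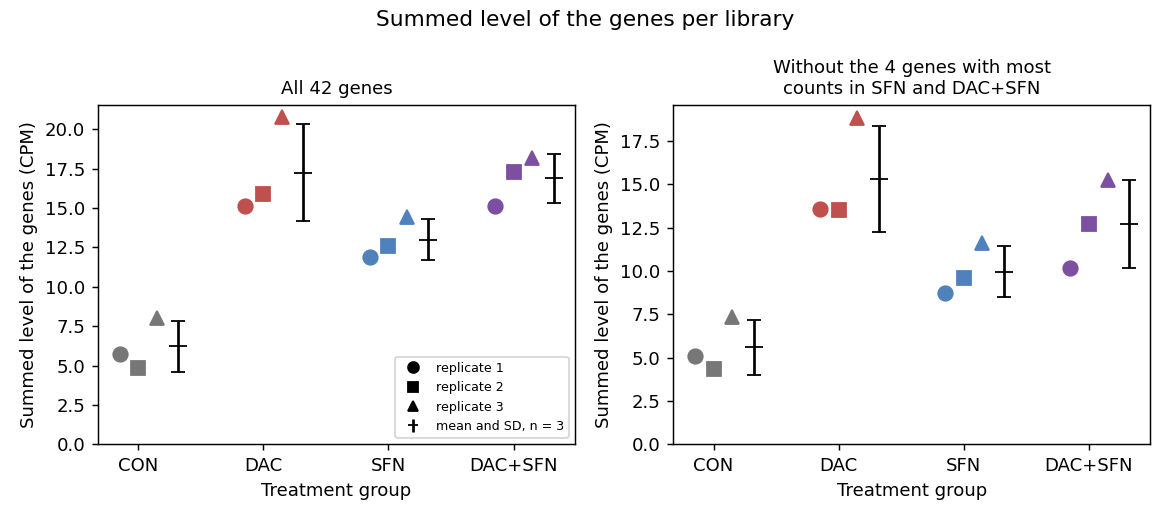
Summed level of the genes in CPM (vertical axis) in each library by treatment group (horizontal axis), for all 42 genes on the left and without the 4 genes with most counts on the right, with symbols for the replicate number and bars for the mean and SD of 3 libraries. The control libraries hold 4.86 to 8.03 CPM and the DAC libraries 15.1 to 20.8 CPM because their counts chose the genes, and the SFN and DAC+SFN libraries overlap only on the right, with the DAC+SFN library above the SFN library of the same replicate in both panels.

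The combination treatment was tested against SFN single treatment with edgeR's quasi-likelihood test over all 13608 genes with at least 24 counts in the 12 libraries, which every one of the 42 genes passed by the way it was chosen. A gene was called at a Benjamini-Hochberg adjusted p under 0.05 and a fold change above 2. None of the 42 genes was called in either direction, against 0.103% of all genes tested called higher (14 genes) and 0% called lower. DESeq2 called 0 of the 42 as well. The lowest adjusted p among them was 0.307, for Plekhg6. At an unadjusted p under 0.05, Plekhg6 and Mir8091 were higher and 0 genes were lower, or 4.76% and 0% of the 42, against 7.86% and 8.32% of all genes tested. With a fold change above 2 as well, only Mir8091 was left, against 0.83% of all genes tested. The standard error (SE) of the log2 fold change had a median of 0.61 over the 42 genes (0.33 to 1.13), so a 2-fold difference was less than 2 SE for a gene with the median error.

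Without a call for any gene, the direction of the estimates can be described. The log2 fold change of DAC+SFN over SFN was above 0 in 28 of the 42 genes (66.7%), against 50.2% of all genes tested, and its median was 0.39 against 0.00079. Genes with few counts lay higher as a class: among the 1385 tested genes with the same range of summed counts over 12 libraries as the 42 (43 to 202), 64% were above 0 and the median was 0.19. The share of the 42 above 0 was therefore close to this background. Estimates above 1 were found for 3 genes (7.14%, against 2.1% of all genes and 9.89% of those in the range) and an estimate below -1 for Bmpr1b. Taken pair by pair, DAC+SFN was above SFN in all 3 pairs with the same replicate number in 15 genes (35.7%, against 25.7% of all genes and 23.5% in the range). It was below SFN in all 3 pairs for Rrad (2.38%, against 17.8% and 7.87%). The median difference over the 42 genes was 0.20, 0.29 and 0.35 on the log2 scale in replicates 1, 2 and 3. With 1 of the 12 libraries left out at a time, the estimate changed sign in at least 1 fit for 16 of the 42 genes. The other 26 kept their sign in these fits, and for 25 of those, Plekhg6 being the exception, the size moved by over 1.5 times.

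**Figure D4:**
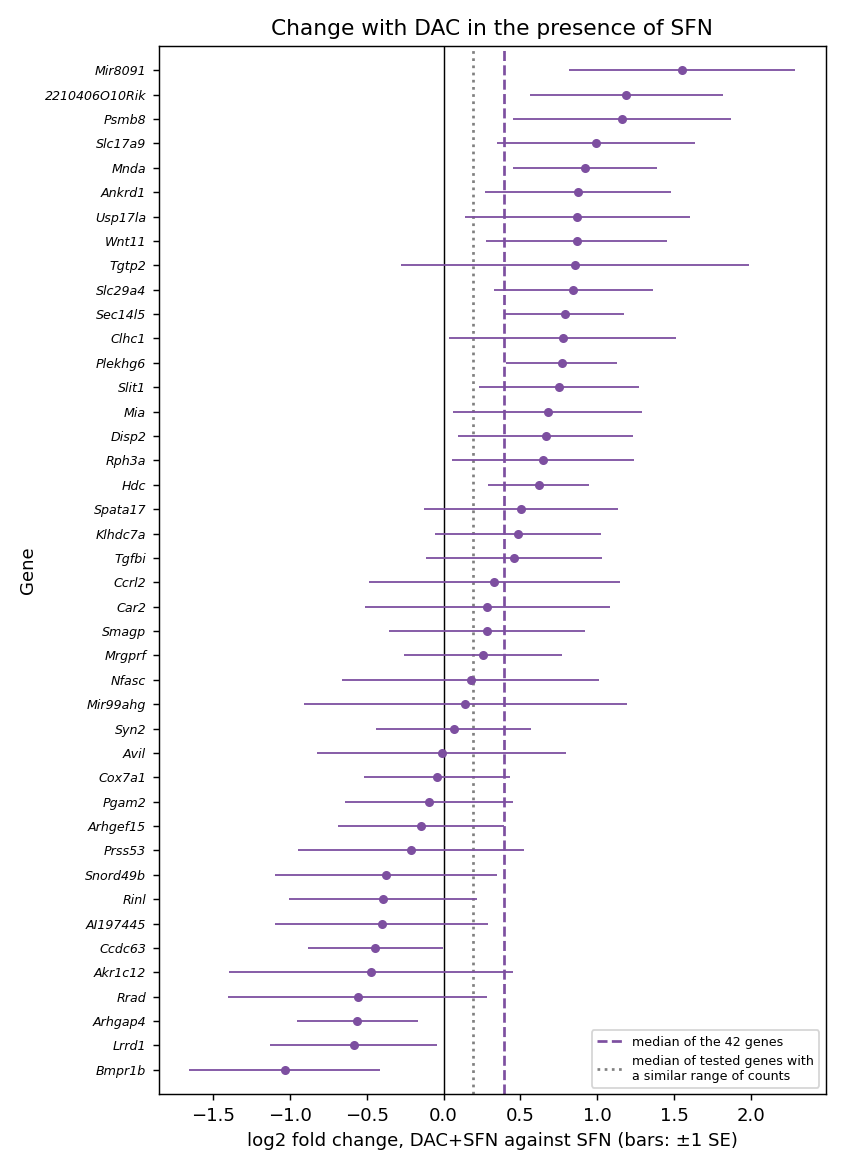
Log2 fold change of DAC+SFN against SFN (horizontal axis) for each of the 42 genes (vertical axis, sorted), with points for the edgeR estimate and bars for 1 SE on either side, beside the median of the 42 genes (0.39, dashed) and that of tested genes in the same range of counts (0.19, dotted). The estimates run from -1.03 for Bmpr1b to 1.55 for Mir8091, and 28 of 42 lie above 0.

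The genes were grouped by the known role of their products, a grouping made after the values were seen, and the groups were not compared by a test. The counts of estimates above 0 given below can be read against the 64% of genes in the same range of counts. The 8 neuronal and secretory genes held 69 counts in all in control, 206 under DAC, 166 under SFN and 223 under DAC+SFN. The log2 fold change of DAC+SFN over SFN was above 0 in 7 of 8, with a median of 0.65. Rph3a, which encodes rabphilin, an effector of the vesicle GTPase RAB3, had 0, 3 and 5 counts in replicates 1, 2 and 3 of control and 14, 6 and 8 with DAC. It had 3, 12 and 6 counts with SFN and 12, 9 and 8 with DAC+SFN, with overlapping groups (log2 fold change 0.65, SE 0.59). Syn2, which encodes the synaptic vesicle protein synapsin II, had 8, 1 and 1 counts in control, 7, 11 and 10 under DAC, 9, 18 and 10 under SFN and 9, 14 and 11 under DAC+SFN. Its SFN and combination libraries held alike counts (log2 fold change 0.06, SE 0.50), and its exons overlap those of Timp4 on the other strand.

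Slc17a9, which encodes a transporter that loads nucleotides into vesicles, had 6, 2 and 3 counts in control, 9, 2 and 13 under DAC, 0, 6 and 9 under SFN and 10, 6 and 11 under DAC+SFN. Its log2 fold change of 0.99 (SE 0.64, adjusted p = 0.487, log2 fold changes of 0.32 to 1.46 when 1 library was left out) came with its widest gap in replicate 1, where SFN alone was at 0. The monoamine transporter gene Slc29a4 had 9, 12 and 6 counts with SFN and 10, 28 and 7 with DAC+SFN. For the axon guidance ligand gene Slit1 these were 8, 11 and 6 and 12, 18 and 8, with each combination library above the SFN library of its replicate. Avil and Nfasc, an actin-binding protein of sensory neurons and a neuronal adhesion molecule, had few counts in both groups, at 1 to 4 and 1 to 5 counts per library in the SFN and combination groups.

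Among the 5 genes of immune cells or the interferon response, all 5 estimates were above 0, with a median of 0.85. Hdc (chr2:126593667-126619299) had 5, 2 and 4 counts in control and 14, 9 and 14 with DAC. It reached 32, 13 and 19 counts with SFN alone and 44, 27 and 19 with DAC+SFN. The level was 0.563 ± 0.0245 CPM with DAC, 0.918 ± 0.523 CPM with SFN and 1.39 ± 0.543 CPM with DAC+SFN (SD, n = 3), the highest of the 42 genes in the last group. The SFN and combination libraries overlapped (log2 fold change 0.62, SE 0.33, adjusted p = 0.370). As shown above, the promoter stretch of Hdc is poor in CpG sites. It is upstream of a RefSeq start but lies inside the gene span given here, which is from GENCODE. By that span it is therefore not upstream of the gene.

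Mnda, which encodes an interferon-inducible nuclear protein of the family that includes Ifi203, had the largest DAC count of the 42 genes. It had 2, 1 and 5 counts in control, 4, 5 and 36 under DAC, 2, 8 and 13 under SFN and 3, 11 and 25 under DAC+SFN. The DAC sum thus came for 80% from replicate 3, and replicate 3 was the highest library in every group. DAC+SFN was higher than SFN in each of the 3 pairs (log2 fold change 0.92, SE 0.47, adjusted p = 0.350). In the count files Mnda shares its Entrez identifier with Ifi203, and only uniquely aligned reads were counted, so its value is uncertain. Mndal, a gene of the same family that missed the control limit by 1 count, had 4, 3 and 36 counts with DAC.

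Psmb8 (chr17:34197721-34201454), a catalytic subunit of the immunoproteasome, had 0, 1 and 9 counts in control, 4, 1 and 22 under DAC, 2, 2 and 7 under SFN and 8, 4 and 9 under DAC+SFN. Replicate 3 supplied 81.5% of its DAC counts. The combination was higher than SFN in each pair, and the groups overlapped (log2 fold change 1.16, SE 0.71, adjusted p = 0.454, log2 fold changes of 0.64 to 2.25 when 1 library was left out). Its exons overlap Gm20496 on the other strand. Tgtp2, an interferon-inducible GTPase with near-identical relatives, had 5, 0 and 19 counts with DAC but only 0 to 6 counts per library in the groups with SFN. Ccrl2, a chemokine-binding receptor, had 5, 7 and 12 counts with DAC and 2 to 4 per library with SFN or DAC+SFN.

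The summed counts of the interferon members were highest in replicate 3 of every group, and so was the interferon list. Mnda, Psmb8 and Tgtp2 together had 6, 2 and 18 counts in control, 13, 6 and 77 under DAC, 4, 10 and 26 under SFN and 12, 20 and 37 under DAC+SFN. The list of 50 interferon-stimulated genes, of which Psmb8 is a member, summed to 647 to 1660 CPM in the libraries of replicate 3, 583 to 887 CPM in replicate 1 and 349 to 568 CPM in replicate 2. Of the 45 listed genes tested, 44 had an estimate above 0 in DAC+SFN against SFN, against 50.2% of all genes tested. The median log2 fold change was 0.88. By edgeR 11 were called higher and 0 lower, against 0.103% and 0% of all genes tested. These calls depended on the libraries: 0 were left without SFN replicate 3, 1 without SFN replicate 1, 2 without DAC+SFN replicate 2, 3 without DAC+SFN replicate 1 and 7 without control replicate 1, against 16 without DAC+SFN replicate 3. With no replicate block 0 were called, and DESeq2 called 6. Without replicate 3 of all groups, an alternative chosen after seeing the data, 3 were called. There 41 estimates were above 0 and the median was 0.61. Without SFN replicate 3 the median was 0.53, with 38 estimates above 0. The fibroblast markers, above, were also highest in replicate 3, and their part in these values was not tested.

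**Figure D5:**
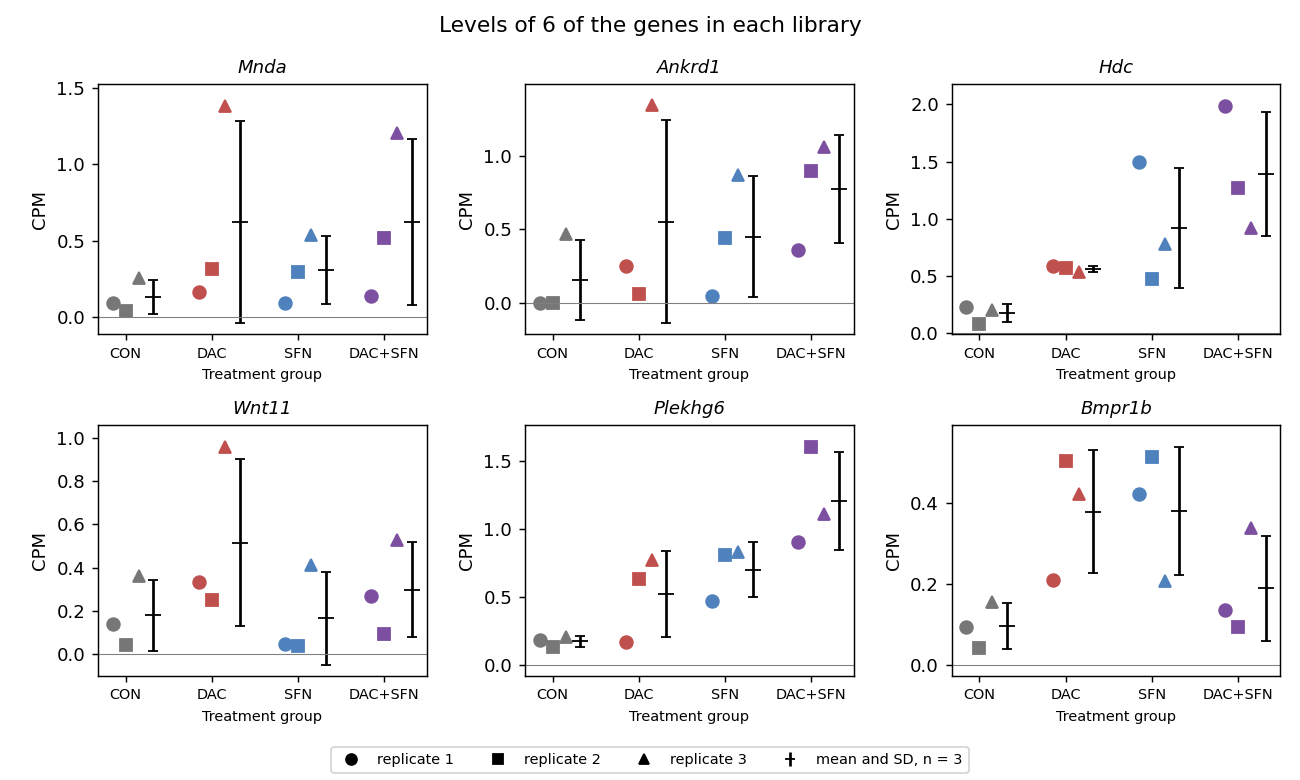
Level in CPM (vertical axis) of Mnda, Ankrd1, Hdc, Wnt11, Plekhg6 and Bmpr1b in each library by treatment group (horizontal axis), with symbols for the replicate number and bars for the mean and SD of 3 libraries. Replicate 3 is the highest DAC library for Mnda, Ankrd1 and Wnt11, and for Plekhg6 the 3 DAC+SFN libraries (0.901 to 1.60 CPM) lie above the 3 SFN libraries (0.467 to 0.825 CPM).

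The 5 secreted factors and receptors had 50, 140, 99 and 101 counts in all in control, DAC, SFN and DAC+SFN. Wnt11 (chr7:98835112-98855195), with the CpG-rich promoter stretch shown above, had 3, 1 and 7 counts in control, 8, 4 and 25 under DAC, 1, 1 and 10 under SFN and 6, 2 and 11 under DAC+SFN. With SFN alone it was therefore near its control level, and each combination library lay above the SFN library of its replicate (log2 fold change 0.86, SE 0.59, adjusted p = 0.511, log2 fold changes of 0.59 to 1.83 when 1 library was left out). The exons of Wnt11 overlap Gm8398 on the other strand. Bmpr1b (chr3:141837136-142169425), a receptor for bone morphogenetic proteins, went the other way. It had 2, 1 and 3 counts in control, 5, 8 and 11 under DAC, 9, 14 and 5 under SFN and 3, 2 and 7 under DAC+SFN. The combination was lower than SFN in replicates 1 and 2 and higher in replicate 3, for the lowest estimate of the 42 genes (log2 fold change -1.03, SE 0.62, adjusted p = 0.446, log2 fold changes of -1.73 to -0.55 when 1 library was left out). Mia, Tgfbi and Mrgprf, which encode a secreted melanoma protein, a matrix protein induced by TGF-β and an orphan receptor, had estimates of 0.68, 0.46 and 0.26. The Mrgprf counts lay mostly in replicate 3, with 20 of 24 with DAC, 19 of 25 with SFN and 20 of 26 with DAC+SFN.

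Regulators of small GTPases were the group with the most counts in the SFN libraries, 187 over 5 genes against 52 in control, 140 with DAC and 167 with DAC+SFN. The estimate of DAC+SFN over SFN was above 0 only for Plekhg6 among the 5. Plekhg6 (chr6:125362660-125380793) had 4, 3 and 4 counts in control, 4, 10 and 20 under DAC, 10, 22 and 20 under SFN and 20, 34 and 23 under DAC+SFN. It was the 1 gene of the 42 (2.38%) whose combination libraries all lay above its SFN libraries in CPM, against 6.9% of all genes tested and 8.23% of those in the range of counts. In raw counts its groups overlapped. No gene of the 42 had every combination library below every SFN library in CPM, against 4.65% of all genes tested. The level of Plekhg6 was 0.699 ± 0.201 CPM with SFN and 1.20 ± 0.358 CPM with DAC+SFN (log2 fold change 0.77, SE 0.36, unadjusted p = 0.0487, adjusted p = 0.307).

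Arhgap4 (chrX:73891442-73921870), the 1 gene of the 42 on the X chromosome, had 3, 4 and 5 counts in control, 8, 10 and 9 under DAC, 17, 25 and 19 under SFN and 18, 11 and 8 under DAC+SFN. Its count with SFN alone was thus above that with DAC in every replicate, while the combination overlapped both (log2 fold change over SFN -0.56, SE 0.39, adjusted p = 0.520). The exons of Arhgap4 overlap those of L1cam and Naa10 on the same strand and of Avpr2 on the other. Arhgef15 had 6, 4 and 2 counts in control, 17, 2 and 11 under DAC, 9, 8 and 11 under SFN and 8, 11 and 4 under DAC+SFN. Rinl, an exchange factor for Rab GTPases, had 1, 0 and 4 counts in control, 12, 10 and 2 under DAC, 15, 16 and 5 under SFN and 10, 6 and 8 under DAC+SFN. For both, the SFN and combination libraries overlapped, with estimates of -0.15 (SE 0.54) and -0.39 (SE 0.61). Rrad, a Ras-related GTPase, had 4, 3 and 5 counts in control, 12, 4 and 9 under DAC, 2, 3 and 5 under SFN and 0, 2 and 4 under DAC+SFN.

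The 5 genes of muscle and metabolism had estimates on either side of 0, with a median of -0.04. Ankrd1 (chr19:36111961-36120099), an ankyrin repeat protein of the heart that is also a target of the YAP coactivator, had 0, 0 and 9 counts in control, 6, 1 and 35 under DAC, 1, 12 and 21 under SFN and 8, 19 and 22 under DAC+SFN. Replicate 3 supplied 83.3% of the DAC counts and the highest count in each group. The combination was higher than SFN in each pair, with overlapping groups (log2 fold change 0.87, SE 0.61, adjusted p = 0.518, log2 fold changes of 0.32 to 1.72 when 1 library was left out). Cox7a1, the heart and muscle form of a cytochrome c oxidase subunit, had 2, 5 and 5 counts in control, 15, 5 and 11 under DAC, 8, 7 and 15 under SFN and 10, 8 and 8 under DAC+SFN. Its level did not separate the groups with SFN (log2 fold change -0.04, SE 0.48). Akr1c12, an aldo-keto reductase, and Car2, a carbonic anhydrase, had 0 to 6 and 1 to 7 counts per library in the groups with SFN, against 2 to 14 and 7 to 9 with DAC alone.

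Of the 2 genes known from sperm, Ccdc63, a coiled-coil protein of the sperm tail, had 3, 3 and 6 counts in control, 16, 7 and 10 under DAC, 16, 13 and 12 under SFN and 8, 11 and 8 under DAC+SFN. Its exons overlap those of Myl2 on the other strand. The raw count of Ccdc63 was higher in every SFN library than in any combination library. In CPM these groups overlapped, at 0.476 to 0.748 CPM with SFN and 0.360 to 0.517 CPM with DAC+SFN (log2 fold change -0.44, SE 0.44, adjusted p = 0.669). Spata17 had an estimate of 0.50 (SE 0.63), and it shares its Entrez identifier with Iqch in the files. None of the germline or X-linked cancer-testis genes listed for this comparison was among the 42. Hormad2, Slc25a31 and Tex19.1 of the germline list had 1, 2 and 5 counts in control. With DAC they had 16, 18 and 16, under the limit of 24. Of the other tested germline genes, Tdrd9, Brdt, Syce2, Msh4, Dppa5a and Zcwpw1 had fewer counts with DAC than in control. Of the 67 listed germline genes, 64 were in the files, 16 had enough counts to be tested and 20 were at 0 in all 12 libraries. Of the 48 listed X-linked genes, 44 were in the files, 5 were tested and 25 were at 0 throughout. None of these 21 tested genes was called in DAC+SFN against SFN by edgeR, and 0 had an unadjusted p under 0.05. The placental list (28 genes, 6 tested), the keratin list (32 genes, 4 tested), the NRF2 targets (30 genes, all tested) and the DNA methylation machinery (17 genes, all tested) likewise held none of the 42 and no called gene. At an unadjusted p under 0.05 in edgeR, 2, 2, 2 and 1 of their genes were higher and 0, 0, 2 and 1 lower. Of all genes tested, 7.86% were higher and 8.32% lower at this limit. The NRF2 targets summed to 12001 to 13221 CPM per library in control and 11932 to 13007 CPM with DAC. They summed to 15179 to 18615 CPM with SFN and 14025 to 18118 CPM with DAC+SFN. Whether the SFN dose differed between the groups with SFN was not tested.

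The 5 non-coding genes had 49, 126, 65 and 74 counts in control, DAC, SFN and DAC+SFN, so their count with SFN was nearer to control than to DAC. Mir8091 (chr19:41588651-41588789) had 3, 4 and 3 counts in control, 7, 8 and 10 under DAC, 0, 2 and 4 under SFN and 2, 8 and 6 under DAC+SFN. Its control and DAC libraries did not overlap, which the choice favored, and each combination library lay above the SFN library of its replicate. The log2 fold change of 1.55 (SE 0.73, unadjusted p = 0.0496, adjusted p = 0.309) rested on 6 and 16 counts. The libraries were made from fragmented polyA RNA, so the counts stand for longer transcripts over the locus and not for the mature microRNA shown above. The long non-coding RNA 2210406O10Rik (chr5:36447611-36464853) had 3, 6 and 1 counts in control, 12, 7 and 8 under DAC, 5, 2 and 3 under SFN and 5, 10 and 6 under DAC+SFN (log2 fold change 1.19, SE 0.63, adjusted p = 0.366). AI197445, Snord49b and Mir99ahg had estimates of -0.40, -0.37 and 0.14, with 0 to 15 counts per library in the groups with SFN.

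Among the 7 remaining genes, Sec14l5 (chr16:5147109-5187271), a member of the Sec14-like family of lipid-binding proteins, had the third largest count in the groups with SFN. It had 2, 4 and 0 counts in control, 11, 8 and 7 under DAC, 9, 23 and 11 under SFN and 28, 26 and 12 under DAC+SFN. Each combination library lay above the SFN library of its replicate, and the groups overlapped (log2 fold change 0.79, SE 0.38, adjusted p = 0.325). Klhdc7a, a kelch-domain protein, had 2, 0 and 1 counts in control, 7, 7 and 14 under DAC, 16, 5 and 5 under SFN and 11, 8 and 14 under DAC+SFN. Its highest SFN library was above its combination library of the same replicate (log2 fold change 0.48, SE 0.54).

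The adhesion protein gene Smagp had 7, 1 and 1 counts in control, 5, 9 and 14 under DAC, 7, 5 and 6 under SFN and 8, 4 and 8 under DAC+SFN, and its groups with SFN were alike (log2 fold change 0.28, SE 0.64). Usp17la, a deubiquitinase of a family with close copies, had 1, 0 and 4 counts in control, 12, 9 and 3 under DAC, 4, 5 and 4 under SFN and 9, 3 and 10 under DAC+SFN (log2 fold change 0.87, SE 0.73). Lrrd1 had 3, 5 and 2 counts in control, 13, 4 and 8 under DAC, 12, 8 and 12 under SFN and 11, 8 and 1 under DAC+SFN (log2 fold change -0.58, SE 0.54). The lowest Lrrd1 count was that of the combination library of replicate 3. Prss53 and Clhc1 had estimates of -0.21 and 0.77 and at most 14 counts in any library with SFN.

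The 42 genes were spread over the genome. Of the 41 with a position in mm10, 36 were protein coding and they lay on 17 chromosomes. Chromosome 7 carried 7 of them (17.1%, against 7.55% of the tested genes with a position) and the X chromosome 1 (2.44%, against 3.2%). The closest neighbours were Mir8091 and Slit1 on chromosome 19, 11468 bases apart, and the next closest, Ccdc63 and Rph3a on chromosome 5, were 1097948 bases apart. Exons of 12 of the 42 genes overlap those of another gene on either strand, and for these the counts may hold reads of the neighbour, since the strand setting of the counting is not given in the sources used here.

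Against control, values are a description only, because the control counts chose the genes and are held low by it. The median log2 difference from control was 1.40 with DAC, 0.87 with SFN and 1.04 with DAC+SFN, and 42, 31 and 37 of the 42 genes were above control. Of all genes tested, which were not chosen for low control counts, 51.7%, 49.7% and 50.4% were above control. Klhdc7a had the largest difference with SFN, at 2.81 above control (3.29 with DAC+SFN), from a control sum of 3 counts. Sec14l5 was 2.63 above control with SFN and 3.41 with DAC+SFN, Rinl 2.56 and 2.17, Hdc 2.34 and 2.96, and Plekhg6 1.98 and 2.75. Arhgap4 was 2.13 above control with SFN and 1.57 with DAC+SFN. Wnt11, by contrast, was 1.47 above control with DAC and -0.15 with SFN.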

How the data were processed

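B16F10 RNA from 4 groups of 3 replicates was sequenced as 75-base single reads from polyA-selected stranded libraries. After trimming in Trimmomatic 0.38, the authors mapped reads to mm10 in TopHat2 2.1.1 and counted uniquely aligned reads with HTSeq. They deposited whole-number counts per gene symbol, without normalization. The gene annotation and strand setting of the counting are not given in the sources used here. Groups and replicate numbers came from the labels, and the design text states independent biological repeats.

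The 42 genes, the gene lists and the rule for named genes were chosen with earlier results of these data known, and the grouping by role was made after values were seen. Genes with at least 24 counts over 12 libraries (13608) were scaled by TMM and tested with glmQLFTest in edgeR 4.0.16 (legacy fit, prior count 0.125, R 4.3.3), two-sided, in 1 model of 12 libraries, blocked by replicate number since the batch that the study corrected for is not named. The study's filter of 1 CPM in 3 libraries keeps 1 of the 42 genes (Hdc) and was used as an alternative. Pair differences are log2(CPM + 0.1). Same-numbered libraries correlated in all 18 pairs (mean 0.544, 0.270 to 0.732, over 11638 genes), so the numbers were taken to pair the samples. Over the 42 genes alone the correlation was weaker (mean 0.224, -0.063 to 0.655), with 13 of the 18 pairs over 0.1. No replicates were copies (chi-square per gene 13.2 to 35.9). Only DAC+SFN against SFN was tested, since control and DAC counts chose the genes.

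Named genes were the 12 with the largest DAC sum, the 6 largest and 4 smallest estimates among the 32 genes with at least 24 counts over the 6 SFN and DAC+SFN libraries, members of the lists and the 3 genes on each side of each limit. Other genes named were chosen after their values were seen. Alternatives were DESeq2 1.42.0 and its size factors, other filters, fits and thresholds, no replicate block and each library left out. The scripts were tested on simulated data. Positions are from GENCODE M21 (mm10), promoters and microRNA from RefSeq (GRCm38.p6).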

Additional observations from a re-analysis of the deposited data

Results flagged for a closer look

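Rrad, which encodes a Ras-related GTPase, was higher with DAC than in control in all 3 pairs of the same replicate number (12, 4 and 9 counts against 4, 3 and 5), as its choice favored, and lower with DAC+SFN than with SFN in all 3 pairs (0, 2 and 4 counts against 2, 3 and 5, log2 fold change -0.559, SE 0.84). With 1 library left out, this estimate lay between -1.36 and 0.09, and it was above 0 without DAC+SFN replicate 1. The difference between these effects was not tested.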

How the results depend on the processing

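None of the 42 genes was called under any alternative with an adjusted p, and with the unadjusted p and a fold change above 2 there was 1 (Mir8091). With no replicate block, 0 of the 42 were called and their median log2 fold change was 0.38, while 0 genes in place of 14 were called overall (0 to 29 with 1 library left out). That median, 0.39, was 0.63 with the filter of 1 CPM in 3 libraries (1 gene left), 0.29 with a prior count of 2 and 0.47 without replicate 3 of all groups, an alternative chosen after seeing the data. Leaving out 1 library gave 0.23 (without DAC+SFN replicate 3) to 0.50 (without DAC+SFN replicate 1). The number of genes chosen depended on the libraries and limits. Where a library was left out, the count limit of its group was lowered as well, so these changes cannot be told apart. There were 23 genes without DAC replicate 3 (17 of them among the 42) and 91 without DAC replicate 2 (39 among the 42). Without control replicate 3 there were 66 (35 among the 42). There were 7 with at most 6 control counts and 30 (27 of them among the 42) with counts scaled to the median library total. With at least 48 DAC counts there were 0, which left no gene for the CpG count. In raw counts 0 genes had every combination library above every SFN library. With 1 library left out the sign turned for 16 of the 42 genes. Of those named by the rule these were Cox7a1 (-0.24 to 0.33), Arhgef15 (-0.79 to 0.16), Klhdc7a (-0.00020 to 1.39) and Syn2 (-0.10 to 0.24). The others were AI197445, Akr1c12, Avil, Car2, Ccrl2, Mir99ahg, Nfasc, Pgam2, Prss53, Rrad (-1.36 to 0.09), Snord49b and Tgtp2 (-0.41 to 4.02). Without replicate 3 of all groups the estimates of Cox7a1, Arhgef15, Klhdc7a and Syn2 were 0.39, 0.31, -0.00080 and -0.048, and that of Lrrd1 was 0.047. The causes were not tested. At 0 to 44 counts per library, a 2-fold difference was less than 2 SE for a gene with the median error.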
